A study of Mus musculus with 16 samples.

Results

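Myod1, Myf5, Myog and Myf6 encode the 4 myogenic regulatory factors of the MyoD family, and they are described here in cultured mouse muscle cells in which msx2 was switched on. The members were taken by symbol, and all 4 of them were found among the 19799 genes with a symbol in the deposited count table. All 4 also passed the filter on low counts that left 16245 genes for testing.

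The cells were pmi28 myoblasts, a mouse line whose cells fuse into multinucleated myotubes. One transgenic line carried inducible msx2 and GFP transgenes, and the other carried an inducible GFP transgene only. All 6 groups thus held a GFP transgene, and the GFP line is the control without msx2. The labels attach 1 protocol text, written for the msx2 line, to all samples, so that the GFP line was treated alike is taken from that shared text. Each line gave uninduced myoblasts in growth medium with 20% fetal bovine serum (2 libraries), uninduced isolated myotubes (3 libraries) and induced isolated myotubes (3 libraries). Myotubes formed over 3 days in 10% horse serum, were caught on a nylon mesh and were recultured with AraC, which acts on dividing cells. Induction was doxycycline at 2 µg/ml for 24 h in growth medium. The medium of uninduced myotubes over that time is not stated in the labels, nor is it said whether a line was 1 clone or whether replicates were separate cultures. The p-values therefore measure the spread between these libraries, which may be technical.

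The 4 proteins are basic helix-loop-helix transcription factors that bind the E-box, CANNTG, as dimers with an E protein. Myf5 and MyoD (from Myod1) commit cells to the muscle lineage and are present in proliferating myoblasts. Myogenin (from Myog) is needed for terminal differentiation, and Myf6, also called MRF4, is the member most tied to mature fibres. Msx2 is a homeodomain repressor, and the Msx proteins are known as inhibitors of muscle differentiation.

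The stretch of coding sequence that the 4 genes share best is shown because like sequences could exchange reads. It is the 60-base window, in frame and without gaps, with the most bases identical in all 4 coding sequences of GENCODE M21, and it falls in the loop and second helix of the DNA-binding and dimerisation domain. Capitals mark the 43 of 60 bases (71.7%) that are the same in all 4.
Myod1: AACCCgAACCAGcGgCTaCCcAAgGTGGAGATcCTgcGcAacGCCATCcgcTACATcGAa
Myf5: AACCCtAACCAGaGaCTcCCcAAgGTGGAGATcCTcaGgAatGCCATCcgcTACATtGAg
Myog: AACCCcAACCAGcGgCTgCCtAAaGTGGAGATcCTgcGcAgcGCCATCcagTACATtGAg
Myf6: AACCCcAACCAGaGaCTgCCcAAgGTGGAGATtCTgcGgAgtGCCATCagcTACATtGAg
The window starts at coding base 415 in Myod1, 337 in Myf5, 331 in Myog and 367 in Myf6, counted from 1 at the start codon. Myf5 and Myf6 were the closest pair in it, with 53 identical bases, and Myf5 and Myog the most distant, with 47. Over whole transcripts the longest run of identical bases was 26 between Myod1 and Myf5, 21 between Myod1 and Myog, and 12 to 14 for the other pairs. The read length is not given in the sources used here, and reads shared between members were not examined.

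The promoters of Myog and Myf5 are shown, the only members whose promoter sequence was at hand. These genes moved in opposite directions when myoblasts became myotubes. Both windows run from 250 to 16 bases before the RefSeq start (build GRCm38.p6), and capitals mark an E-box or the letters CTATATTTA, an AT-rich core of the kind that Mef2 factors bind.
Myog, chr1:134289754-134289988, plus strand: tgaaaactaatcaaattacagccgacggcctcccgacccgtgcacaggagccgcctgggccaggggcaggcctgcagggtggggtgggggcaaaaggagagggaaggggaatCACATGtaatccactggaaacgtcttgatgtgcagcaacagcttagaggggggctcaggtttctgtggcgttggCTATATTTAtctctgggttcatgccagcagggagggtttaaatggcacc
Myf5, chr10:107486150-107486384, minus strand: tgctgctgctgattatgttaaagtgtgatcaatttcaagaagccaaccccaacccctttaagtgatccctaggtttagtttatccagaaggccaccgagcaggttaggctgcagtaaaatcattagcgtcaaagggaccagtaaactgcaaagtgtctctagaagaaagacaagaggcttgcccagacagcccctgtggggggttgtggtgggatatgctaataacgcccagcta
Both strands were searched for CANNTG, for its form CAGCTG, for CTATATTTA and for TAATTG, a homeodomain core of the Msx type. The Myog window held 1 E-box, CACATG, and 1 CTATATTTA, and the Myf5 window held none of the 4 motifs. Of 32851 promoter windows of the same length (235 bases), 64.1% held an E-box, 12.1% CAGCTG, 6.92% TAATTG and 0.18% CTATATTTA. A match is a description of letters and no evidence of binding in these cells. The sequences are of another genome build than mm9, which the submitters' processing notes name.

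Libraries held 19784873 to 33092666 counts. Msx2 followed the labels: it stood at 1340 to 1510 CPM (read counts scaled to a common library size) in induced msx2-line myotubes, and at 12.1 to 16.8 CPM in uninduced cells of that line, above the 0.803 to 1.59 CPM of all GFP-line libraries. The 7 myotube markers in the table summed to 26200 to 31700 CPM in uninduced myotubes and 846 to 1690 CPM in myoblasts, and to 16000 to 18700 CPM in induced msx2-line myotubes. The 8 cycling-cell markers summed to 1450 to 1850 CPM in myoblasts and 24.8 to 81.6 CPM in myotubes, so the labels of differentiation also held. The 8 fibroblast markers summed to 1480 to 2110 CPM in myoblasts and 155 to 537 CPM in myotubes, most of it from Col3a1, a collagen gene (group means of 1480 and 2070 CPM in myoblasts and 250 to 370 CPM in myotubes), while Thy1, Dpt, Lum and Tcf21 were under 1 CPM in every group. The 5 adipocyte markers summed to 21.2 to 30.1 CPM in myoblasts and 7.2 to 20.2 CPM in myotubes, from Cebpa and Pparg, with Fabp4, Adipoq and Plin1 under 1 CPM in every group. The 2 GFP-line myoblast libraries differed little beyond counting noise (chi-square per degree of freedom 1.949, against 10.5 to 31.26 for all other pairs within a group).

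The members differed widely in level and in the groups that used them. Levels of different genes are compared per kilobase of transcript (RPKM, from GENCODE M21 lengths of 1861 bases for Myod1, 2083 for Myf5, 1495 for Myog and 1263 for Myf6). In GFP-line myoblasts Myod1 was the leading member at 96.9 ± 2.18 RPKM (SD, n = 2), ahead of Myf5 at 36.7 ± 1.92 and Myog at 30.3 ± 1.59, with Myf6 at 0.458 ± 0.188. In uninduced GFP-line myotubes Myog led at 507 ± 29.0 RPKM (n = 3), ahead of Myod1 at 141 ± 4.90, Myf6 at 14.4 ± 5.57 and Myf5 at 3.42 ± 0.473. Myf5 and Myf6 thus changed places as the least abundant member, and Myog took the lead from Myod1.

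As shares of the family's summed per-length level, Myod1 held 58.9% ± 0.644 (SD, n = 2) of GFP-line myoblasts and 21.1% ± 1.32 (n = 3) of their uninduced myotubes. Myog held 18.4% ± 0.348 and 76.2% ± 2.28 in the same groups. The msx2-line myoblasts were already less dominated by Myod1, with 48.2% ± 0.908 Myod1, 36.4% ± 0.961 Myog and 15.1% ± 0.139 Myf5 (n = 2). The induced msx2-line myotubes had 28.4% ± 1.96 Myod1 and 71.2% ± 1.87 Myog (n = 3), with 0.140% ± 0.0267 Myf5 and 0.332% ± 0.141 Myf6. In that group the ratio of Myog to Myod1 per length was 2.27 to 2.73, below the 3.26 to 3.66 of uninduced myotubes of the line and far above the 0.732 to 0.781 of its myoblasts. These shares were not tested.

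**Figure D1:**
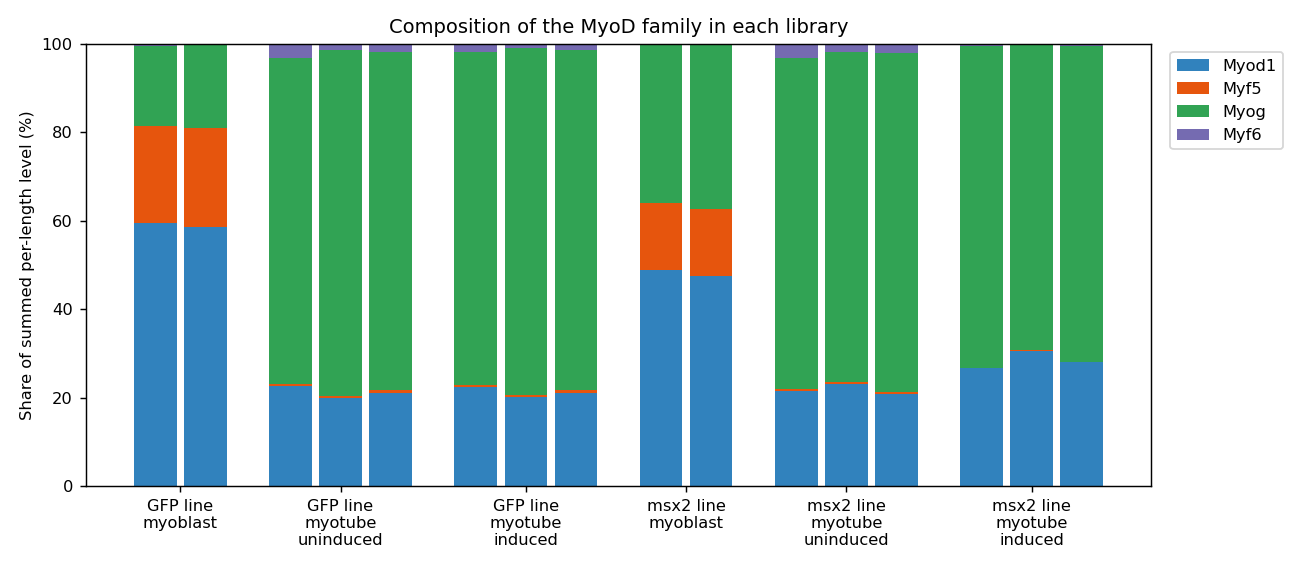
Share of each member in the summed per-length level of the family (y axis, percent), 1 bar per library, grouped by line and state on the x axis. Myod1 is the largest part in both myoblast groups (48.2 and 58.9% on average) and Myog in all 4 myotube groups, and the Myf5 part is broad in myoblasts and a thin line in myotubes.

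Differentiation was read from uninduced myotubes against myoblasts in each line, the question that the myoblast libraries serve as reference for. In the GFP line all 4 members passed the test (edgeR quasi-likelihood, Benjamini-Hochberg over all genes, adjusted p under 0.05), 3 rising and 1 falling, in a comparison where 77.7% of genes passed (39.8% higher and 37.9% lower). With so many genes called, the sizes say more than the calls: the median absolute change over all genes was 0.816 log2 units. In the msx2 line 3 of 4 passed, 2 rising and 1 falling, where 79.8% of genes did (40.8% higher and 39% lower).

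Myog, the differentiation factor, stood at 43.7 and 47.0 CPM in GFP-line myoblasts and at 711, 797 and 766 CPM in uninduced myotubes. All myotube libraries lay far above both myoblast libraries, a rise of 4.06 ± 0.10 log2 (SE, adjusted p = 3.84e-14), or 16.7-fold between the means. In the msx2 line it stood at 165 and 154 CPM in myoblasts and 812, 752 and 758 CPM in uninduced myotubes. That rise was 2.28 ± 0.09 log2 (adjusted p = 7.01e-12), 4.86-fold. The myotubes of the lines were alike in level and the myoblasts were not. The difference between the rises, tested as an interaction, was -1.78 ± 0.12 log2 (adjusted p = 7.98e-07), in a comparison where 8.28% of genes passed (4.01% higher and 4.27% lower), and Myog had the fifth smallest p of all genes in it.

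Myf6, the factor of mature fibres, was close to absent in myoblasts, with 16 and 9 reads in the GFP-line libraries and 13 and 23 reads in the msx2-line ones. In uninduced myotubes it had 519, 359 and 514 reads (26.3, 13.2 and 15.1 CPM) in the GFP line and 584, 419 and 529 reads (29.1, 14.9 and 16.5 CPM) in the msx2 line. No myotube library came near a myoblast library. The rises were 4.96 ± 0.63 log2 (adjusted p = 9.83e-06) in the GFP line and 4.69 ± 0.59 log2 (adjusted p = 8.27e-06) in the msx2 line. Their difference was -0.26 log2 with a 95% interval of -2.52 to 1.99, too wide to call them alike. In both lines the replicate 1 myotubes held the highest Myf6 level.

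Myf5, the early lineage factor, moved the other way. It fell from 73.7 and 79.3 CPM in GFP-line myoblasts to 8.04, 6.09 and 7.27 CPM in their uninduced myotubes (-3.43 ± 0.15 log2, adjusted p = 1.04e-11). In the msx2 line it fell from 97.7 and 86.7 CPM to 7.79, 5.87 and 5.26 CPM (-3.89 ± 0.15 log2, adjusted p = 3.58e-12). The myotube levels were 9.33 and 6.84% of the myoblast levels in the respective lines. The falls differed by -0.46 ± 0.21 log2, which did not pass (adjusted p = 0.186), though it did with the replicate number as a block and an offset for GC content together (-0.70, adjusted p = 0.0154). Because the cycling-cell markers fell over the same step, with 8 of 8 lower in each line, fewer dividing cells and less Myf5 RNA per cell cannot be told apart in these bulk libraries.

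Myod1, the other lineage factor, changed least. It stood at 177 and 183 CPM in GFP-line myoblasts and at 270.2, 252 and 262 CPM in their uninduced myotubes, a rise of 0.54 ± 0.08 log2 (adjusted p = 1.36e-05). In msx2-line myoblasts it was already at 279.7 and 245 CPM, within or near the 289.8, 287 and 257 CPM of uninduced myotubes, and the change was 0.09 ± 0.08 log2 (adjusted p = 0.321, 95% interval -0.08 to 0.25). Upper-quartile scaling gave 0.30 log2 (adjusted p = 0.00165), a filter of 5 CPM in 3 libraries 0.29 (adjusted p = 0.00239) and the block with the GC offset 0.36 (adjusted p = 9.5e-05), while without msx2-line myoblast replicate 2 it was -0.02. The difference between the lines in this step was -0.45 ± 0.11 log2 (adjusted p = 0.0193). That call was lost without msx2-line myoblast replicate 1 (adjusted p = 0.161), without GFP-line myoblast replicate 1 (0.0892) or 2 (0.0745), with the compared groups alone (0.0543) and with the block and GC offset (0.0657).

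**Figure D2:**
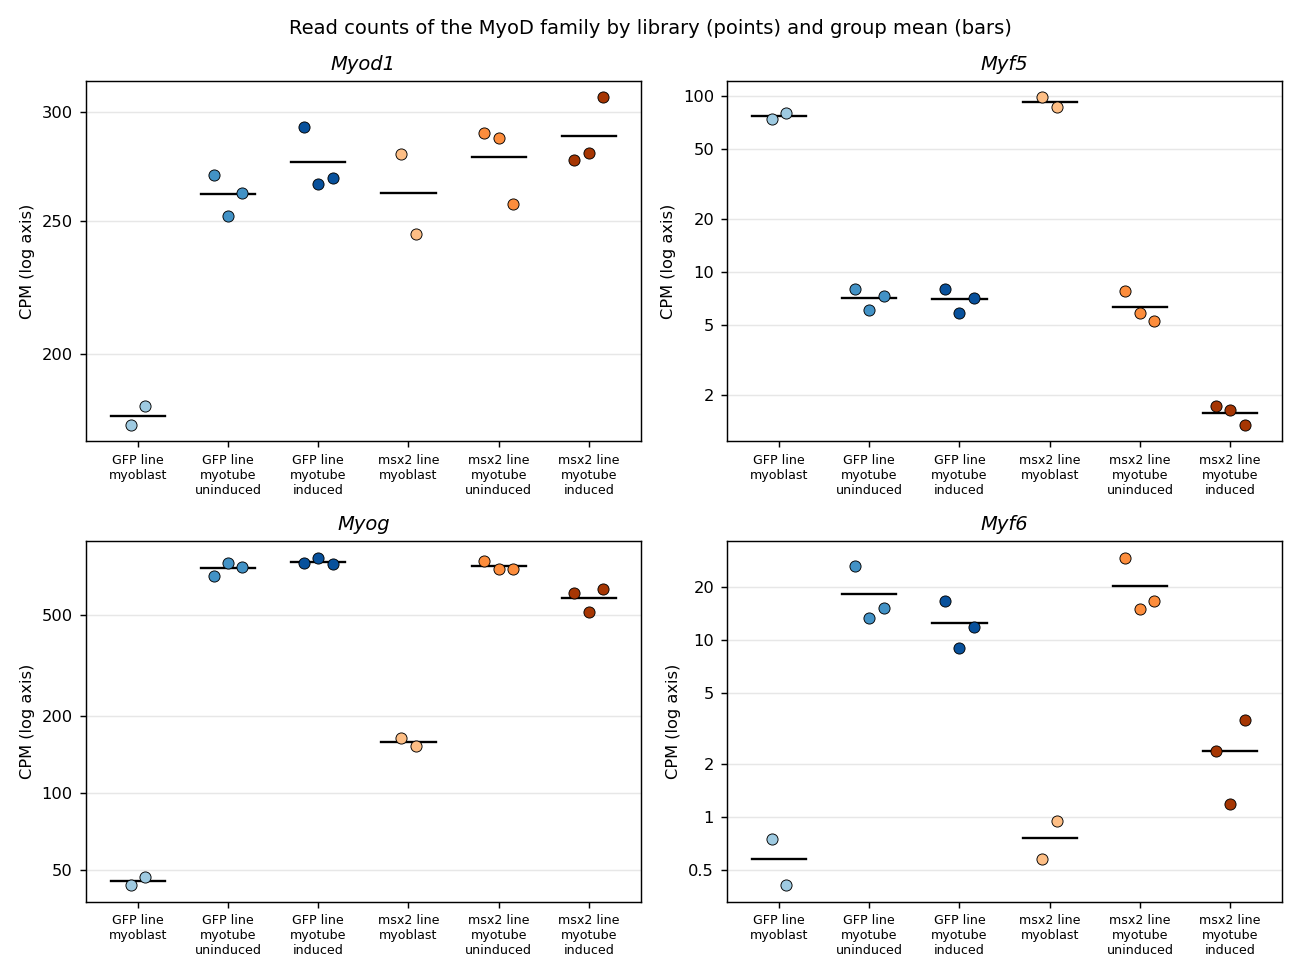
CPM of each member (y axis, log scale, a different range in each panel) in the 16 libraries, grouped by line and state, with points for libraries and bars for group means. Myog and Myf6 are low and Myf5 is high in myoblasts, Myod1 spans 177 to 308 CPM in all groups, and induced msx2-line myotubes stand below the other myotubes for Myf5, Myog and Myf6.

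The lines already differed as uninduced myoblasts, where 16.3% of genes passed (9.09% higher and 7.24% lower in the msx2 line). Of the members 2 were higher and 2 did not pass. Myog was 3.51 times as high in the msx2 line (159 ± 7.84 against 45.3 ± 2.37 CPM, SD, n = 2 each; 1.81 ± 0.10 log2, adjusted p = 3.28e-08), the third smallest p of all genes. Myod1 was 1.45 times as high (262 ± 24.7 against 180 ± 4.06 CPM; 0.54 ± 0.09 log2, adjusted p = 0.000593). Myf5 stood at 0.27 ± 0.15 log2 (adjusted p = 0.221) although its libraries did not overlap. It passed with only the compared groups (0.19 log2, adjusted p = 0.0205) and with the block and GC offset (0.51, adjusted p = 0.0064). Myf6, at 0.763 ± 0.259 and 0.578 ± 0.238 CPM, gave 0.41 ± 0.98 log2 (adjusted p = 0.818), an interval of -1.71 to 2.54 that leaves its direction unknown.

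Other muscle genes moved with Myog there. The summed myotube markers were 1620 to 1690 CPM in msx2-line and 846 to 854 CPM in GFP-line myoblasts, with 6 of 7 tested markers higher. Of 24 tested genes that MyoD family factors activate, 21 were higher and 3 did not pass, with a median of 1.10 log2 against 0.08 over all genes, of which 9.09% were higher. Among them Myh3, for embryonic myosin heavy chain, stood at 187 ± 8.61 against 61.5 ± 4.17 CPM and Tnni1, for slow troponin I, at 134 ± 10.4 against 43.4 ± 2.29 CPM (n = 2 each). The summed cycling-cell markers were lower, 1450 to 1460 against 1840 to 1850 CPM, with 1 of 8 lower by the test. Over all genes 7.24% were lower, and the median of this mixed list was -0.18 log2. Group means were lower for Mki67 (242 against 421 CPM), Top2a (374 against 553 CPM), Bub1, Ccnb1 and Ccna2. They were higher for Cdk1 (258 against 249 CPM), Aurkb (75.7 against 69.1 CPM) and Plk1 (161 against 133 CPM). Msx2 itself was at 16.6 ± 0.277 against 1.43 ± 0.219 CPM (n = 2 each). The part of these in the Myog and Myod1 differences was not tested.

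As uninduced myotubes the lines were close, with 0.0616% of genes passing (0.00616% higher and 0.0554% lower in the msx2 line). None of the 4 members passed, none had an unadjusted p under 0.05 in edgeR's test, and none passed with DESeq2. The intervals of the differences were -0.06 to 0.24 log2 for Myod1, -0.13 to 0.19 for Myog, -0.51 to 0.12 for Myf5 and -0.61 to 0.90 for Myf6. The Myf6 interval thus reached nearly 1 log2 unit in this fit, which has no replicate term. With the replicate number as a block Myf6 was at 0.15 ± 0.20 log2 (SE, edgeR, adjusted p = 0.805).

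Induction of the msx2 transgene was read from induced against uninduced msx2-line myotubes. Of the 4 members 3 fell, Myf6 and Myf5 steeply and Myog mildly, and Myod1 did not pass, in a comparison where 32.5% of all genes passed and 16.3% passed as lower. The median over the 4 members was -1.19 log2, against -0.01 over all genes. Marker levels moved too. The summed myotube markers went from 26200 to 29000 CPM down to 16000 to 18700 CPM, with 3 of 7 lower and 4 not passing. For the next 2 marker lists the share to compare with is the 16.2% of all genes that were higher. Of the fibroblast markers 1 of 6 tested was higher, Ly6a (4.95 ± 1.22 to 8.93 ± 1.56 CPM, n = 3 each), and the summed levels overlapped (233 to 537 and 155 to 440 CPM). Of the adipocyte markers 1 of 4 tested was higher, Cebpa (5.28 ± 1.66 to 15.5 ± 1.77 CPM, n = 3 each), and the summed level went from 8.38 to 12.1 CPM up to 18.1 to 20.2 CPM. Their part in the changes of the family was not tested.

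Myf6 stood at 29.1, 14.9 and 16.5 CPM in uninduced and at 2.37, 1.18 and 3.52 CPM in induced myotubes of replicates 1, 2 and 3. The groups did not overlap, and the induced mean was 11.7% of the uninduced one (-3.07 ± 0.42 log2, adjusted p = 9.01e-05). The fall was seen in 3 of 3 same-numbered pairs, with ratios of 0.0793 to 0.214. Behind the induced values were 56, 30 and 99 reads, for which counting error alone is about 12.7% of the mean, below the observed spread of 49.7%.

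Myf5, already low in myotubes, fell further from 7.79, 5.87 and 5.26 CPM to 1.73, 1.65 and 1.35 CPM. Every induced library was below every uninduced one, and the change was -1.98 ± 0.18 log2 (adjusted p = 6.54e-07), a 3.99-fold fall in the means. Read counts were 156 to 169 uninduced and 38 to 42 induced. The summed level of the cycling-cell markers was 28.6 to 37.1 CPM uninduced and 24.8 to 65.8 CPM induced, ranges that overlapped. Pax7, which marks muscle progenitors and acts above Myf5, rose from 3.31 ± 0.706 to 9.26 ± 1.61 CPM (n = 3 each; 1.5 ± 0.20 log2, adjusted p = 4.3e-05).

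Myog stood at 812, 752 and 758 CPM in uninduced and 608, 510 and 631 CPM in induced myotubes. The ranges did not overlap, and the fall was -0.41 ± 0.08 log2 (adjusted p = 0.000604), which left 75.4% of the uninduced mean. It was in the same direction in 3 of 3 pairs, with ratios of 0.679 to 0.833. Myod1 stood at 289.8, 287 and 257 CPM uninduced and 277, 280.2 and 308 CPM induced, with ranges that overlapped. Its change was 0.05 ± 0.07 log2 (adjusted p = 0.619), with an interval of -0.10 to 0.20. Among the alternatives the block with the GC offset alone called it, and in the other direction (-0.15 log2, adjusted p = 0.0476).

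The GFP line with transgene expression induced was the control for this step, and 0.0308% of its genes passed. None of the 4 members passed, none had an unadjusted p under 0.05 in edgeR's test, and none passed with DESeq2. Myog was at 711, 797 and 766 CPM uninduced and 793, 836 and 790.5 CPM induced (0.09 ± 0.08 log2, adjusted p = 1). Myf5 was at 8.04, 6.09 and 7.27 CPM uninduced and 8.03, 5.84 and 7.10 CPM induced (-0.03 ± 0.15 log2, adjusted p = 1). Each Myf5 value thus stayed within 4% of its same-numbered partner, with ratios of 0.960 to 0.998.

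Myf6 was the member whose GFP-line control moved most. It stood at 26.3, 13.2 and 15.1 CPM uninduced and 16.5, 9.04 and 11.8 CPM induced, lower in 3 of 3 same-numbered pairs with ratios of 0.630 to 0.778. The ranges overlapped and the change was -0.54 ± 0.36 log2 (adjusted p = 1). With the replicate number as a block its standard error narrowed to 0.21 (-0.53 log2, unadjusted p = 0.0278), but it did not pass after adjustment (adjusted p = 1). Myod1 was at 270.2, 252 and 262 CPM uninduced and 293, 266 and 269 CPM induced (0.08 ± 0.07 log2, adjusted p = 1).

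**Figure D3:**
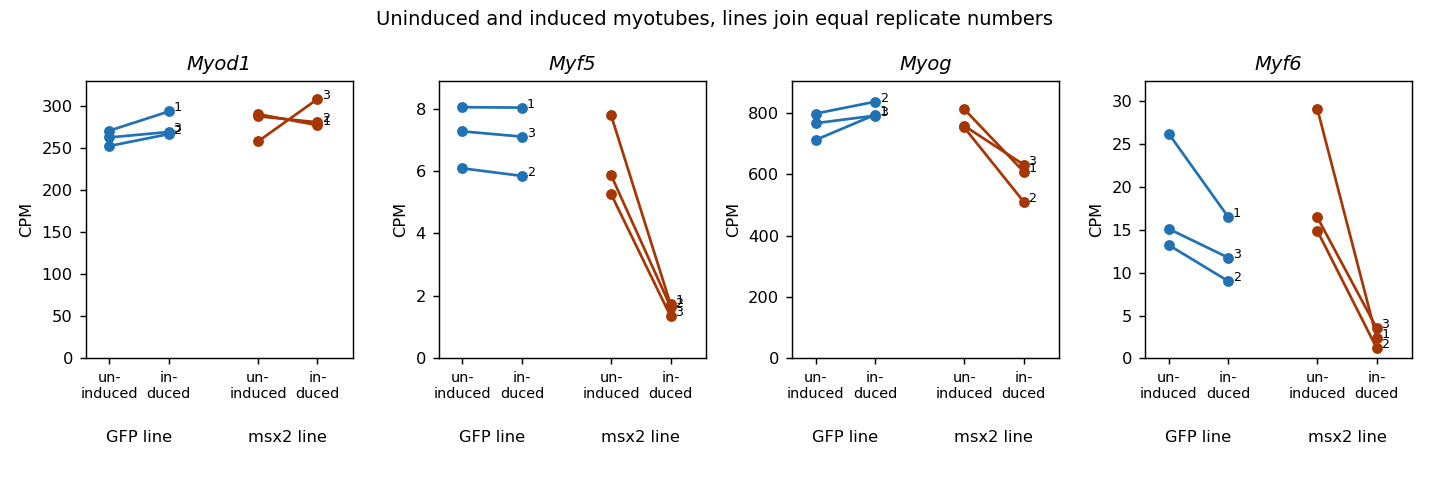
CPM of each member (y axis, from 0) in uninduced and induced myotubes, with lines joining libraries of the same replicate number in the GFP line (left in each panel) and the msx2 line (right). Myf5, Myog and Myf6 go down in all 3 pairs of the msx2 line; in the GFP line Myf5 and Myog stay nearly level and Myf6 goes down by less, with ratios of 0.630 to 0.778.

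The difference between the inductions, the part of the response beyond that of the GFP line, was tested as an interaction, in which 17.9% of genes passed (9.15% higher and 8.78% lower). It was -2.53 ± 0.55 log2 for Myf6 (adjusted p = 0.00614), -1.95 ± 0.24 for Myf5 (adjusted p = 3.58e-05) and -0.50 ± 0.11 for Myog (adjusted p = 0.00384). For Myod1 it was -0.03 ± 0.10 (adjusted p = 0.899, interval -0.23 to 0.18). The same 3 members were lower in induced msx2-line than in induced GFP-line myotubes, where 35.3% of genes passed (17.6% higher and 17.8% lower): Myf6 by -2.38 ± 0.42 log2, Myf5 by -2.15 ± 0.18 and Myog by -0.47 ± 0.08. Myod1 was at 0.06 ± 0.07 log2 there (adjusted p = 0.518), and at -0.17 (adjusted p = 0.0212) with the block and GC offset. These comparisons share the induced msx2-line libraries and are not independent of each other.

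**Figure D4:**
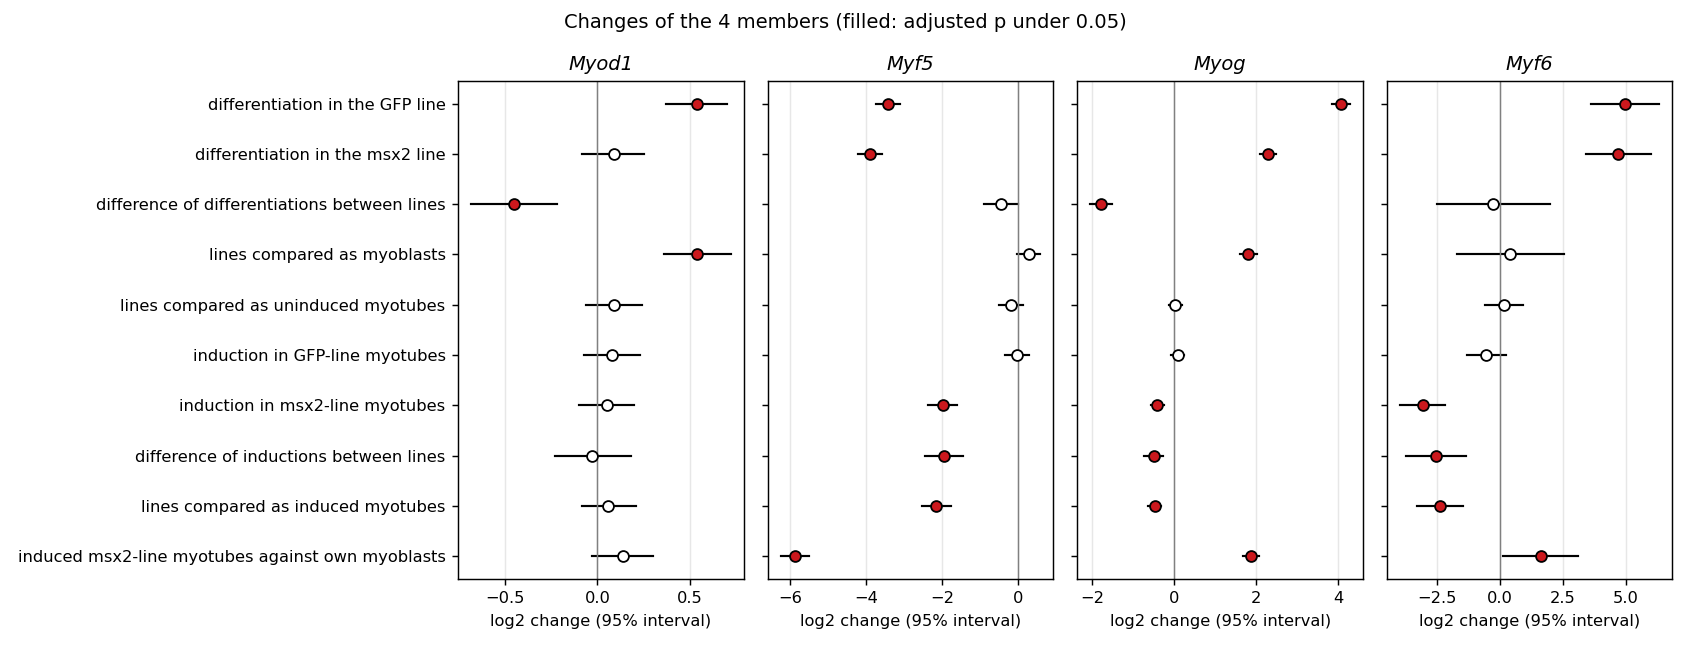
Log2 change of each member (x axis, a different range in each panel) in the 10 comparisons (y axis). Lines are 95% intervals derived from edgeR's F statistic, and points are filled where adjusted p was under 0.05. Myf5, Myog and Myf6 are lower in each of the 3 comparisons that contrast induced msx2-line myotubes with other myotubes, while the Myod1 intervals include 0 there.

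Set against the line's own myoblasts, induced msx2-line myotubes did not have a myoblast-like family, in a comparison where 80.9% of genes passed. Myf5 was at 1.58 ± 0.201 CPM (SD, n = 3) against 92.2 ± 7.82 CPM (n = 2), or 1.71% of the myoblast mean (-5.87 ± 0.17 log2, adjusted p = 2.85e-13). Differentiation and induction moved it in the same direction. Myog was at 583 ± 64.0 CPM against 159 ± 7.84 CPM, still 3.67 times as high (1.87 ± 0.09 log2, adjusted p = 4.01e-11). Myf6, at 2.36 ± 1.17 CPM against 0.763 ± 0.259 CPM, was 3.09 times as high as in the myoblasts. Its difference of 1.62 ± 0.68 log2 passed narrowly (adjusted p = 0.0427). It was not called without msx2-line myoblast replicate 1 (adjusted p = 0.184) or 2 (0.0806), without induced replicate 1 (0.0678) or 3 (0.148), or with no low-count filter (0.0652). Myod1 did not pass (0.14 ± 0.08 log2, adjusted p = 0.116), but it did with upper-quartile scaling (0.34), the 5 CPM filter (0.36), the block with GC offset (0.21) and without msx2-line myoblast replicate 1 (0.23, adjusted p = 0.0421).

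Ordered by mean CPM, Myog ran from induced GFP-line myotubes (806 ± 25.4, SD, n = 3) through the uninduced myotubes of the msx2 line (774 ± 33.0) to those of the GFP line (758 ± 43.4). Within these groups each overlapped with the next. Induced msx2-line myotubes and the 2 myoblast groups followed, each without overlap with the group before it. Myf5 ran from msx2-line myoblasts through GFP-line myoblasts to 3 overlapping myotube groups (7.13 ± 0.986, 6.99 ± 1.10 and 6.30 ± 1.32 CPM), with induced msx2-line myotubes lowest and apart. For Myf6 the uninduced myotubes of both lines (20.2 ± 7.81 and 18.2 ± 7.03 CPM) and induced GFP-line myotubes (12.4 ± 3.79 CPM) overlapped, induced msx2-line myotubes stood apart, and the myoblast groups overlapped at the bottom. For Myod1 the 5 highest groups overlapped with their neighbours, from 288 ± 16.9 down to 261 ± 9.12 CPM, and GFP-line myoblasts alone stood apart.

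Myf5 and Myf6 are neighbours in the RefSeq gene order on mouse chromosome 10. Their levels moved in opposite directions on differentiation and in the same direction on msx2 induction, as the values above show. Across the 16 libraries Pearson's r between their log2 CPM was -0.53, while it was 0.84 for Myog with Myf6 and for Myog with Myod1. These are descriptions over libraries that fall into groups, with no test.

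The genes whose pattern over the 16 libraries was most like each member were taken by the smallest root mean square difference of log2 CPM, each gene centred on its own mean. For Myog they were Rbm24, for an RNA-binding protein of muscle splicing (0.234 log2), Dpep1, for a dipeptidase (0.274), and Hes6, a helix-loop-helix gene (0.284). Rbm24 stood at 20.7 ± 1.92 and 40.3 ± 1.43 CPM in GFP-line and msx2-line myoblasts, and at 241 ± 23.5 and 192 ± 25.3 CPM in uninduced and induced msx2-line myotubes. Its likeness to Myog is what chose it. For Myf6 they were Ano5, for a membrane protein of muscle (0.396), Ripply1, for a corepressor of somites (0.464), and Shisa2 (0.483). Ano5 fell from 159 ± 73.0 to 24.3 ± 8.18 CPM between uninduced and induced msx2-line group means and was at 201 ± 39.7 and 185 ± 41.0 CPM in the GFP line. For Myf5 they were Avpr1a, a vasopressin receptor gene (0.497), Igsf10 (0.560) and Ect2, for a factor of cytokinesis (0.587). For Myod1 they included Smpd1, for acid sphingomyelinase (0.0860), and Kdm4b, for a histone demethylase (0.0890). Myod1 varied so little, with an SD of 0.22 log2 over the libraries, that 429 of the 15160 genes compared lay within a distance of up to 2 times that of Smpd1. For Myog that count was 71.

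The genes that work with the family were followed in lists by role. The E proteins, the dimer partners, all passed on differentiation in the GFP line, with 1 of 3 higher and 2 lower, where 77.7% of all genes passed. Tcf3, for E12 and E47, fell from 231 ± 11.8 to 56.8 ± 3.61 CPM (-2.02 ± 0.08 log2), Tcf12, for HEB, by -0.84 ± 0.06, while Tcf4, for E2-2, rose by 0.83 ± 0.09. On msx2 induction Tcf4 fell from 150 ± 16.9 to 87.5 ± 6.51 CPM (-0.78 ± 0.08 log2, adjusted p = 2.07e-06) and Tcf12 by -0.25 ± 0.05, and Tcf3 rose by 0.32 ± 0.07, a call that was lost with the block and GC offset (adjusted p = 0.161). Tcf4 and Tcf12 also passed the test of the difference from GFP-line induction (-0.75 ± 0.11 and -0.23 ± 0.07 log2), and Tcf3 did not (adjusted p = 0.0569). Of all genes 17.9% passed it.

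Of 15 inhibitors of the family or competitors at its E-boxes, 14 were tested. In GFP-line differentiation 9 were lower and 4 higher, with a median of -1.13 log2 against 0.06 over all genes, of which 37.9% were lower and 39.8% higher. Id3, which binds E proteins away from DNA, fell from 296 ± 9.57 to 56.0 ± 5.97 CPM, and Twist2 from 19.1 ± 0.208 to 2.08 ± 0.0841 CPM. Bhlhe40, an E-box repressor, rose by 2.41 ± 0.12 and Zeb1, a zinc-finger repressor, by 1.48 ± 0.09 log2. With msx2 induction 6 were higher and 2 lower, with a median of 0.08 log2, where 16.2% of all genes were higher and 16.3% lower. In the difference from GFP-line induction 4 were higher and 10 did not pass, where 9.15% of all genes were higher and 8.78% lower. Bhlhe40 rose from 98.1 ± 9.64 to 160 ± 11.5 CPM (0.70 ± 0.09 log2, adjusted p = 2.67e-05) and Mdfi, for the MyoD family inhibitor I-mfa, from 2.06 ± 0.465 to 3.66 ± 0.204 CPM. Snai2 (-0.60 ± 0.16) and Zeb1 (-0.27 ± 0.07) fell, Zeb1 no longer passing with only the compared groups or without uninduced replicate 1 (adjusted p = 0.0801 and 0.0523). Neither passed the test of the difference from GFP-line induction (adjusted p = 0.139 for Snai2 and 0.0726 for Zeb1), while Bhlhe40 and Mdfi did. Id3 was level on induction at 66.1 ± 1.07 and 66.1 ± 1.74 CPM.

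Of 13 coactivators, 8 were lower and 2 higher in GFP-line differentiation, and 5 were higher and 3 lower on msx2 induction. Over all genes 37.9% were lower and 39.8% higher in the former, and 16.3% lower and 16.2% higher in the latter. In the difference from GFP-line induction 2 coactivators were lower, Mapk14 and Meis1, and 11 did not pass. There 8.78% of all genes were lower and 9.15% higher. In differentiation Setd7, a histone methyltransferase, and Smarcd3, the muscle BAF60c subunit, rose by 1.52 ± 0.15 and 0.87 ± 0.13 log2. Carm1, an arginine methyltransferase, fell by -1.28 ± 0.07. On induction Mapk14, the kinase p38 alpha, fell by -0.49 ± 0.09 log2 and Meis1, for a homeodomain cofactor, by -0.58 ± 0.12. Crebbp rose by 0.24 ± 0.05 and Smarca4 by 0.23 ± 0.06, though Smarca4 lost the call with only the compared groups (adjusted p = 0.0568) and with the block and GC offset (0.22). Neither rise passed the test of the difference from GFP-line induction (adjusted p = 0.0646 for Crebbp and 0.0993 for Smarca4). Of 7 corepressors, 5 were lower and 1 higher in GFP-line differentiation, where Ezh2 and Hdac1 fell by -2.10 ± 0.09 and -1.75 ± 0.09 log2 and Hdac4 rose by 0.47 ± 0.08. On induction 3 were higher and 1 lower. Hdac4 and Hdac5, class IIa deacetylases that bind Mef2 factors, rose by 0.60 ± 0.07 and 0.55 ± 0.09, and Suv39h1, an H3K9 methyltransferase, fell by -0.95 ± 0.17. These 3 also passed the test of the difference from GFP-line induction, which 17.9% of all genes passed.

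Of 14 upstream and cooperating factors, 5 were higher and 7 lower in GFP-line differentiation, where 39.8% of all genes were higher and 37.9% lower. Mef2c, which acts with the family at muscle promoters, rose from 8.17 ± 0.783 to 1590 ± 249 CPM and Tead4 by 2.99 ± 0.12 log2. Pax7 fell from 61.7 ± 0.466 to 5.58 ± 1.31 CPM. On msx2 induction 4 were higher and 5 lower, where 16.2% of all genes were higher and 16.3% lower. Among the 5 was Eya4, for a transcriptional coactivator, which fell from 142 ± 25.9 to 49.1 ± 5.48 CPM. Mef2c fell from 1160 ± 106 to 468 ± 83.9 CPM (-1.31 ± 0.14 log2, adjusted p = 7.64e-06), while its relative Mef2a rose by 0.41 ± 0.09 log2 and Pax7 rose as above. In the difference from GFP-line induction 2 of the 14 were higher and 5 lower, where 9.15% of all genes were higher and 8.78% lower.

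Of 25 listed targets 24 were in the table and tested. In GFP-line differentiation 23 were higher and 1 did not pass, with a median of 4.74 log2, where 39.8% of all genes were higher. Tnnc1 and Tnni1, for slow troponins C and I, rose from 31.5 ± 0.148 to 2070 ± 125 CPM and from 43.4 ± 2.29 to 2400 ± 57.7 CPM. On msx2 induction 13 were lower and 3 higher, with a median of -0.22 log2, where 16.3% of all genes were lower and 16.2% higher. In the difference from GFP-line induction 9 were lower, 2 higher and 13 did not pass. There 8.78% of all genes were lower and 9.15% higher. Myh3 fell from 8270 ± 593 to 2080 ± 320 CPM and Myl1, for a fast myosin light chain, from 3200 ± 320 to 1210 ± 125 CPM. Tnnc1 and Tnni1 fell by -0.22 ± 0.07 and -0.41 ± 0.07 log2, of which Tnnc1 did not pass the test of the difference from GFP-line induction (adjusted p = 0.283). Against that direction Dll1, a Notch ligand, rose from 7.40 ± 2.09 to 27.8 ± 4.44 CPM (1.90 ± 0.19 log2, adjusted p = 2.32e-06) and Fgfr4, a growth factor receptor, from 9.20 ± 0.931 to 21.2 ± 2.51 CPM (1.2 ± 0.11 log2, adjusted p = 9.22e-07). Both also passed the test of the difference from GFP-line induction.

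**Figure D5:**
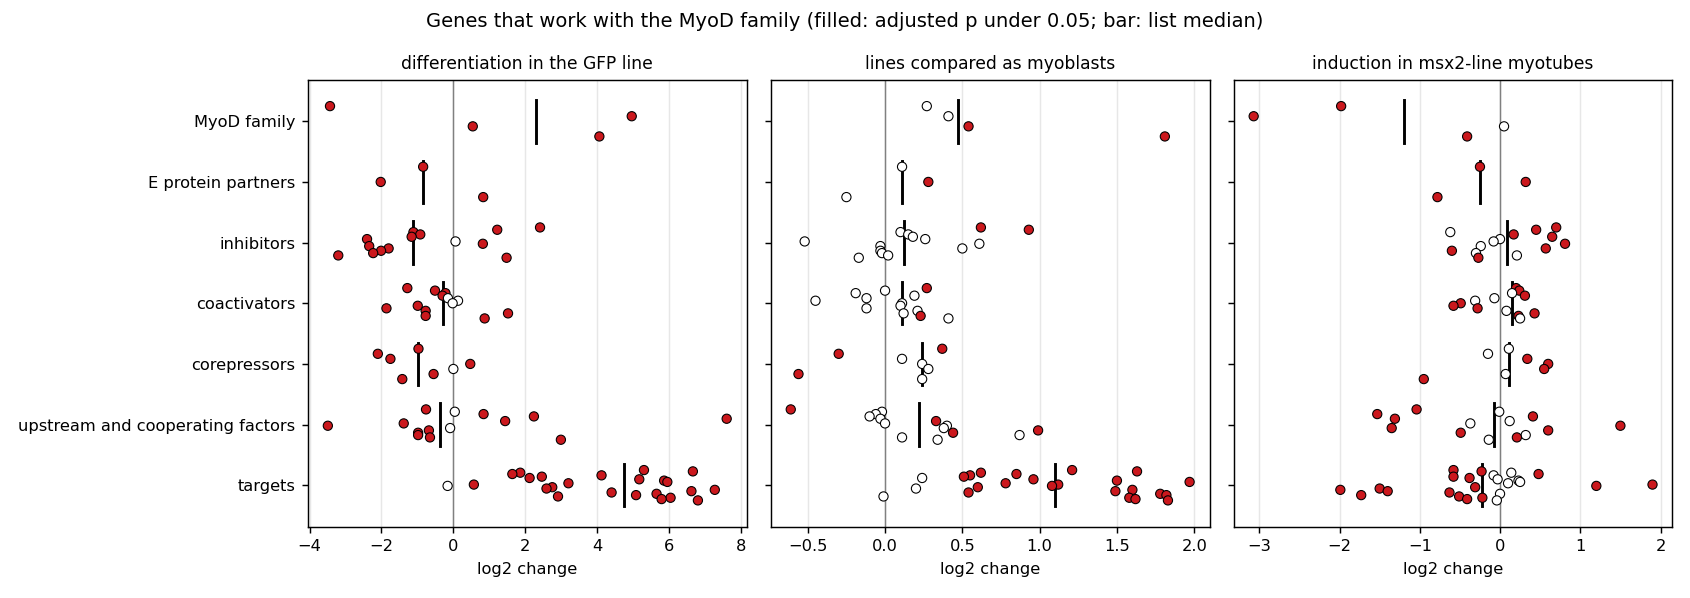
Log2 change (x axis) of each tested gene of 7 lists (y axis) in GFP-line differentiation, in msx2-line against GFP-line myoblasts and in msx2 induction, filled where adjusted p was under 0.05, with a bar at each list's median. The targets lie to the right in the first and second panels (medians 4.74 and 1.10) and on both sides of 0 in the third (median -0.22).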

How the data were processed

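Messenger RNA was sequenced from 16 samples (TruSeq stranded kit, per the labels). The authors deposited raw read counts per gene. Of 19866 entries, 67 had no symbol (0.0601 to 0.0878% of a library) and were dropped. Per the submitters' processing notes edgeR (3.6.8), TopHat2 (2.0.11) and SAMtools (0.1.19) were involved, and mm9 was the build. Which program counted reads, on which annotation and with which strand setting, is not known here. Counts of amplified reads carry counting error as a minimum.

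All 16 libraries entered a single edgeR fit (version 4.0.16, with limma 3.58.1 in R 4.3.3) with 1 coefficient per group, filterByExpr at a minimum count of 10, TMM scaling and robust two-sided quasi-likelihood tests. P-values were adjusted within each of 10 comparisons (threshold 0.05), and the procedure was tested on simulated data for msx2 induction. It recovered 63.8% of 1.5-fold, 84% of 2-fold and 100% of 4-fold and 8-fold changes, and 4.52% of calls were false. The simulation changed 47 to 50 tested genes at each size and held all others equal between groups. These data hold far more changed genes, so its rates may not carry over. Fold changes are edgeR's shrunken ones. Standard errors were derived as the size of the unshrunken change over the square root of edgeR's F statistic. The 95% intervals are t intervals built from these around the unshrunken change. CPM use TMM-adjusted sizes, and RPKM divide them by transcript length in kilobases.

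Members, lists and naming rules were chosen with earlier results of these data known. The rule named, per list, at most 2 rising and 2 falling genes of smallest adjusted p in msx2 induction and again in GFP-line differentiation, and for each member the 3 most similar genes (prior count 2). Id3, Mef2c, Tnnc1 and Tnni1 on induction are given as the same genes in another comparison. Col3a1, Ly6a, Cebpa, Pparg and the single cycling-cell markers were named after their values were seen. Uninduced libraries serve in several comparisons. Induced and uninduced myotubes of equal number deviated together (correlations 0.207 to 0.508 in the 6 pairs), as did uninduced myotubes of the lines (0.177 to 0.288). Numbers were therefore taken to pair them in the ratios and in the replicate block, while the main fit has no replicate term. Same-numbered myoblasts and uninduced myotubes of a line did not deviate together (-0.01 to 0.011), though the block joins them too. Alternatives (DESeq2 1.42.0, other scalings and filters, the replicate block, omitted libraries, coding length) are in the closing section. GC content was matched for 99.3% of symbols. Actc1 is not analysed here. Some genes meeting the naming rule are left unreported.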

Additional observations from a re-analysis of the deposited data

Results flagged for a closer look

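In 5 cases a member's change differed between the msx2 line and the GFP line by a test of the difference itself (edgeR interaction, Benjamini-Hochberg). Of all genes 17.9% passed this test for induction and 8.28% for differentiation. On induction the msx2 line fell further for Myf5 (-1.95 log2, adjusted p = 3.58e-05), Myf6 (-2.53, adjusted p = 0.00614) and Myog (-0.50, adjusted p = 0.00384), each lower in 3 of 3 same-numbered pairs of the msx2 line. In the GFP line Myf5 and Myf6 were also lower in 3 of 3 pairs (ratios 0.960 to 0.998 and 0.630 to 0.778), and Myog in 0 of 3. Such pairs were not counted over all genes. On differentiation the change was smaller in the msx2 line for Myog (-1.78, adjusted p = 7.98e-07) and Myod1 (-0.45, adjusted p = 0.0193). Myod1 rose in the GFP line and did not pass in the msx2 line (0.09 log2, adjusted p = 0.321). Its difference was not called without msx2-line myoblast replicate 1 (adjusted p = 0.161), without GFP-line myoblast replicate 1 (0.0892) or 2 (0.0745), with only the compared groups (0.0543), or with the block and GC offset (0.0657). For both genes the myoblast level was the higher one in the msx2 line, and the uninduced myotubes of the lines did not differ by the test.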

How the results depend on the processing

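Of 40 member results (4 members in 10 comparisons), 23 passed. The share of all genes that passed ran from 0.0308% in GFP-line induction to 80.9% in induced msx2-line myotubes against own myoblasts. Over the 351 alternatives of those 23 results, 341 stayed on the same side of the threshold, 10 lost the call and 0 changed sign. The replicate block changed no member's call: in msx2 induction it gave -3.04 for Myf6, -1.98 for Myf5 and -0.41 log2 for Myog. The calls that were lost were those of Myod1 in the difference of differentiations (-0.39 with only the compared groups, -0.28 with the block and GC offset, -0.53 to -0.35 leaving out single libraries) and of Myf6 in induced msx2-line myotubes against myoblasts (1.59 with no low-count filter, 1.2 to 2.02 leaving out single libraries). Of the 17 results that did not pass, Myod1 gained calls in msx2-line differentiation (0.30 with upper-quartile scaling, 0.29 with the 5 CPM filter, 0.36 with the block and GC offset) and against msx2-line myoblasts (0.34, 0.36 and 0.21; 0.04 to 0.23 leaving out single libraries). Myf5 gained them in the comparison of myoblasts (0.19 with only the compared groups, 0.51 with the block and GC offset) and in the difference of differentiations (-0.70 with the latter). Myod1 turned sign with the block and GC offset in msx2 induction (-0.15) and between induced myotubes (-0.17), and without both msx2-line myotube libraries numbered 2 in the difference of inductions (0.02). Leaving out single libraries, results near 0 also turned sign: Myod1 in msx2 induction (0.00 to 0.08), in the difference of inductions (-0.08 to 0.02) and in msx2-line differentiation (-0.02 to 0.17), Myf5 in GFP-line induction (-0.14 to 0.09), Myog between uninduced myotubes (-0.01 to 0.07), and Myf6 between uninduced myotubes (-0.20 to 0.50), between myoblasts (0.00 to 0.90) and in the difference of differentiations (-0.75 to 0.15). The GC offset and the omission of both libraries were chosen after seeing the data, as was coding length; the cause of these changes was not tested.

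Upper-quartile scaling moved the median of all genes from 0.057 to 0.204 in GFP-line and from 0.076 to 0.292 log2 in msx2-line differentiation, and from 0.12 to 0.324 against msx2-line myoblasts. The share of calls that were higher went from 48.4 to 66.5% in the difference of differentiations and from 55.7 to 37% between myoblasts. Numbers of genes past the threshold moved by over 1.5 times for the difference of differentiations (1345, with 2264 under the block and 454 without msx2-line myoblast replicate 1, and 674 and 439 without GFP-line myoblast replicate 1 or 2), for myoblasts (2652, with 5173 in only the compared groups and 764, 1156 and 853 without those same libraries), for uninduced myotubes (10, with 173 under the block, 153 by DESeq2, 278 with the block and GC offset, and 2 to 21 without single libraries) and for GFP-line induction (5, with 9 under the block, 10 by DESeq2, 11 with the block and GC offset, and 3 to 7 without single libraries).

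With coding in place of transcript length the shares of the family were, for GFP-line myoblasts, uninduced and induced myotubes, 52.9, 19.1 and 19.1% Myod1, 18.9, 78.5 and 79.2% Myog and 28.0, 0.651 and 0.604% Myf5. For the msx2 line they were 43.4, 19.7 and 25.8% Myod1, 37.4, 77.9 and 73.8% Myog and 19, 0.554 and 0.178% Myf5. Depth limits Myf6 in myoblasts, with 9 to 23 reads a library.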
